A study of Mus musculus with 13 samples.

Results

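Mitochondrial ribosomal proteins were examined in microglia, the resident macrophages of the brain. The members were chosen by name alone, as every gene symbol that begins with Mrpl or Mrps followed by a number and is not marked as a pseudogene. This gave 77 of the 14518 entries of the gene table, 48 named Mrpl and 29 named Mrps, on 17 chromosomes. All 77 passed the filter on low values. The libraries were made from sorted CD11b-positive, CD45-intermediate microglia of C57BL/6 mice aged 2 months. The RSD group (n = 7) were mice exposed to repeated social defeat for 6 cycles, a stress in which mice meet an aggressor again and again. The CON group (n = 6) were controls, and cells were collected 24 days after defeat ended. The labels do not say that each library came from a separate animal, so the p-values below measure the spread between libraries.

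Mitochondria have their own ribosome, which makes the few proteins encoded by mitochondrial DNA, all of them membrane subunits of the respiratory chain and of ATP synthase. Its ribosomal RNAs are encoded in the mitochondrion, but its proteins are all encoded in the nucleus, made in the cytosol and imported. Some descend from the proteins of the bacterial ribosome and others were added during mitochondrial evolution. The number in a symbol follows the bacterial protein in many cases where there is one, though not in all. The letters l and s stand for the large and the small subunit. A few names do not match the place of the protein: Mrps18a and Mrps30 sit in the large subunit, and Mrps36 is now known as a subunit of the alpha-ketoglutarate dehydrogenase complex. By place, 50 members belonged to the large subunit, 26 to the small subunit and 1, Mrps36, to neither. Of the subunit proteins 46 were classed with a bacterial counterpart and 30 without one. Mrps18a and Mrps18b, although relatives of a bacterial protein, were counted among the 30.

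Promoters of nuclear genes for mitochondrial proteins are known for sites of NRF1, ETS factors and YY1, and 68 of the 77 members had a promoter entry in RefSeq (GRCm38.p6). The 150 bases before the RefSeq start are shown for the 4 members with an unadjusted limma p under 0.05 between RSD and CON. Of all genes tested 4% met that level, and none of the 77 members passed an adjusted p of 0.05. The choice of these 4 is therefore no result about the members. The start regions of the lower pair (Mrpl10 and Mrpl34) and the higher pair (Mrpl35 and Mrpl51) are set side by side as a description. Capitals mark CGCATGCG (the core of the NRF1 motif), CCGGAAG (the core of many ETS motifs) and GGGCGG (the core of SP motifs). The RefSeq start can differ from the GENCODE start in the gene coordinates given further on.
Mrpl10 (chr11:97041432-97041581, plus strand): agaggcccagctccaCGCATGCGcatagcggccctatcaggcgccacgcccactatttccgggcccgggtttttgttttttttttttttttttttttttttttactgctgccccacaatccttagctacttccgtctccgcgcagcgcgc
Mrpl34 (chr8:71464776-71464925, plus strand): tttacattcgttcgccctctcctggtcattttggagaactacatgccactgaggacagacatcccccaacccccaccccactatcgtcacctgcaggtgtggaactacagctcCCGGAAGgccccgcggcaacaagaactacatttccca
Mrpl35 (chr6:71823785-71823934, minus strand): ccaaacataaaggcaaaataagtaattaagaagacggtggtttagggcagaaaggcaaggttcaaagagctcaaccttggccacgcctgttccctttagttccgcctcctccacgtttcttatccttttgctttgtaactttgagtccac
Mrpl51 (chr6:125192050-125192199, plus strand): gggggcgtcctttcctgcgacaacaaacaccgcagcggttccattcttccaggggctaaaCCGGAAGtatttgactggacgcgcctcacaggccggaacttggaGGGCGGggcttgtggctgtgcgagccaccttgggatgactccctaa

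Mrpl10 held the NRF1 letters with their first base at position -135 from the start. Mrpl34 (position -37) and Mrpl51 (position -90) each held the ETS letters, so the same letters occurred in a member from the lower pair and in one from the higher pair. Mrpl35 held none of the marked letters in this stretch and held the YY1 letters AAGATGGC at position 24, past the start. Over windows of 300 bases (250 before the start and 50 after), searched on both strands, CCGGAAG occurred in 23 of 68 member promoters (33.8%), in 19.0% of the 9277 tested genes with a promoter entry and in 9.17% of all 27025 promoters. AAGATGGC occurred in 12 of 68 (17.6%), 4.93% and 2.88%, and CGCATGCG in 7 of 68 (10.3%), 4.11% and 1.91%. GGGCGG occurred in 34 of 68 (50%), 63.9% and 36.0%. CCAAT was at 39.7% of member promoters and 39.2% of tested genes, CACGTG at 7.35% and 10.3%, TATAAA at 5.88% and 7.03%, and TGACGTCA at 2.94% and 3.3%. Among the 7 members with the NRF1 letters were Mrpl10, Mrpl17, Mrpl32 (at positions -86 and -23) and Mrps18b. The 12 with the YY1 letters included Mrpl35, Mrpl42, Mrps12, Mrps18a and Mrps7. These are matches of letters in a window, and no binding was measured.

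Sequencing depth was 9.76 to 12.3 M reads per library, with a mean of 10.8 ± 0.83 M in RSD, against 11.3 ± 0.98 M in CON (SD), and with an exact two-sided permutation p of 0.335. Levels are given as normalized reads, which are reads divided by the size factor of their library, and as mean ± SD over the 7 RSD or 6 CON libraries unless stated otherwise. The 7 microglia markers summed to 267605 to 281646 normalized reads in RSD and 167951 to 284064 in CON. A pair of libraries stood apart. Over genes, the median of the Spearman correlations of RSD 8 with its 12 fellow libraries was 0.968 and that of CON 18 was 0.942, and no other library was below 0.989. In CON 18 the 6 measured markers of macrophages outside the brain parenchyma, none of them at 0, summed to 23125 normalized reads, against 715.6 to 1011 in RSD and 619.0 to 826.8 in the other 5 CON libraries, and its microglia markers had the lowest sum. Where leaving out RSD 8 or CON 18 moved the log2 difference of a member by more than 1.5 times and by at least 0.05, the value without it is given for those members whose means or log2 differences over all 13 libraries are printed below.

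The 77 members summed to between 9079 and 9569 normalized reads in RSD (mean 9370 ± 191, SD, n = 7) and between 9263 and 9681 in CON (9464 ± 153, SD, n = 6), and the ranges overlapped. The highest library held 1.07 times the sum of the lowest. A sum over many genes varies less than single genes do by averaging alone, so this is given as a level and not as a sign of stability. Large subunit transcripts summed to 6143 ± 140 normalized reads in RSD, against 6244 ± 132 in CON. Small subunit transcripts summed to 3192 ± 77.2 in RSD and 3180 ± 56.0 in CON. The ratio of the large to the small sum was 1.93 ± 0.045 in RSD and 1.96 ± 0.046 in CON, again with overlapping ranges (1.83 to 1.97 in RSD and 1.90 to 2.02 in CON). A sum is led by its most abundant members, so it says little about those of few reads.

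**Figure D1:**
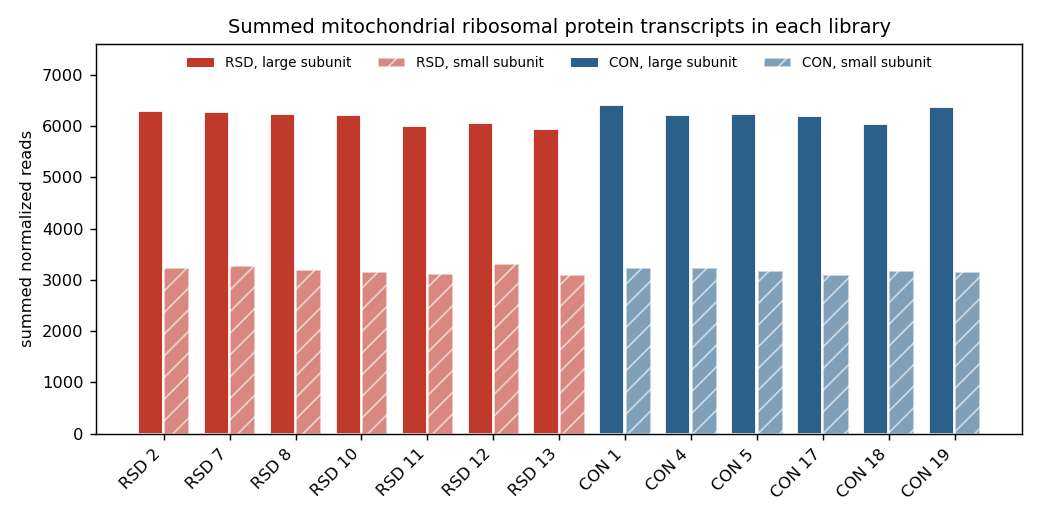
Summed normalized reads (vertical axis) of the large subunit members (solid bars) and small subunit members (hatched bars) in each of the 7 RSD libraries (red, left) and 6 CON libraries (blue, right). The ranges of the groups overlap for both subunits.

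Cytosolic ribosomal protein transcripts, which encode the other ribosome of the cell, varied more as a group. Each gene was set against its mean over the 13 libraries on the log2 scale, and the median of these deviations was taken per library. For the mitochondrial members the median deviation ran from -0.09 to 0.06 in RSD and from -0.03 to 0.06 in CON. For the cytosolic proteins it ran from -0.17 to 0.04 in RSD and from -0.15 to 0.40 in CON. CON 18 stood at 0.40 for the cytosolic proteins and at -0.03 for the mitochondrial members, and without it the highest cytosolic value in CON was 0.17. In CON 18 the macrophage markers moved with the cytosolic values, and their part in this contrast was not tested.

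Levels of single members were compared per length, as normalized reads per kilobase of the annotated principal transcript (mean over the 13 libraries). Mrps15, a small subunit protein with a bacterial counterpart, was highest at 296 ± 32.0 (SD, n = 13). Mrpl24 (251 ± 18.4), a bacterial-type protein of the large subunit, and the mitochondrial additions Mrpl52 (250 ± 35.3) and Mrpl42 (238 ± 38.7) came next and lay within their spread of each other. Mrps9, a bacterial-type small subunit protein, followed at 176 ± 14.6. Lowest were Mrps16 (11.6 ± 3.18), Mrpl51 (16.8 ± 3.20) and Mrpl57 (19.7 ± 4.97). The members thus spanned 25.4-fold per kilobase although each ribosome is built with about equal numbers of most of its proteins, and 55 of 77 lay within 2-fold of the family median of 75.4. The median over 11583 tested protein-coding genes was 103. Part of the range depends on the annotation: member transcripts run from 418 to 7300 bases, and a long annotated 3′ end lowers the value per kilobase if microglia use a shorter one.

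**Figure D2:**
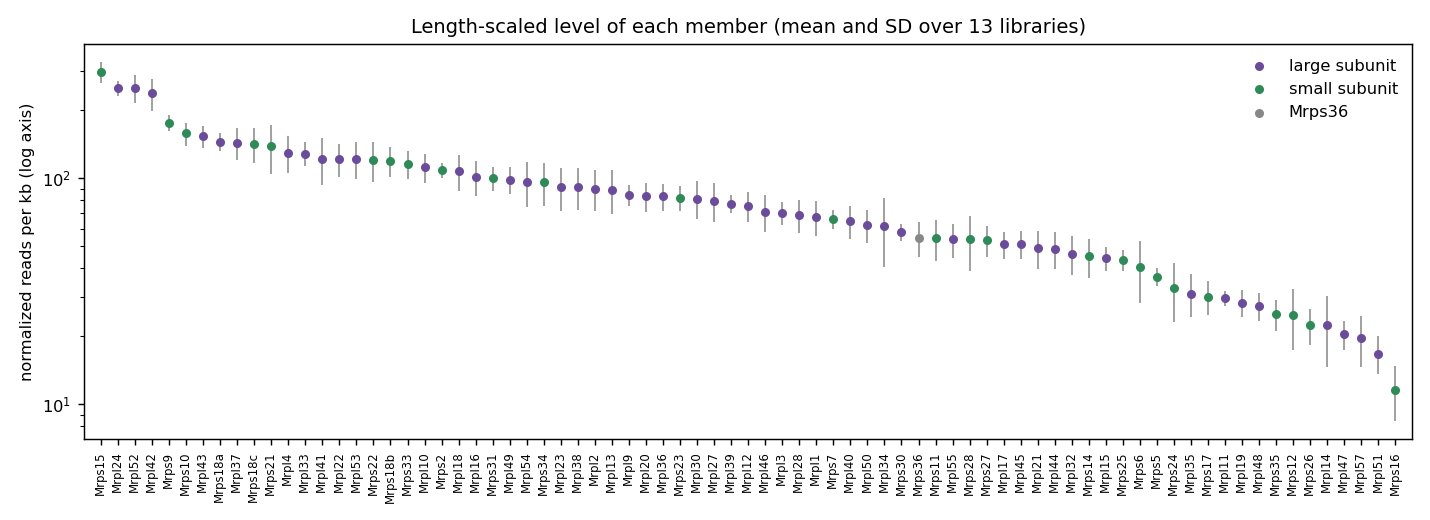
Normalized reads per kilobase (log axis) of each of the 77 members, from the highest to the lowest, with points at the mean and bars at the SD over all 13 libraries. Purple marks the large subunit, green the small subunit and grey Mrps36, and both subunits are spread over the whole order from Mrps15 (296) to Mrps16 (11.6).

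Both subunits covered this range. The median level per kilobase was 78.4 for the large subunit and 60.2 for the small subunit. Members without a bacterial counterpart had a median of 86.8 and those with one had 69.7. Before scaling for length, the members averaged 14.5 (Mrpl14) to 373 (Mrpl17) normalized reads, with a median of 109, and 41 of 77 reached 100. The coefficient of variation was taken within groups, as the SD pooled over RSD and CON divided by the mean over the 13 libraries. By this measure the steadiest members were Mrps2 (7.06%), Mrpl24 (7.19%) and Mrps9 (7.58%). Each was close to the counting error of 6.70%, 5.50% and 6.39%, in this order, that their reads alone would give. The most variable were Mrpl14 (35.6%) and Mrps12 (31.7%), which were also the members of fewest reads. Over the family the median coefficient of variation was 16.8% and the median counting error 9.70%. These errors cover the counting of reads only, and PCR copies would make reads fewer independent molecules.

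Between RSD and CON no member passed an adjusted p of 0.05. In limma with Benjamini-Hochberg adjustment over the 12496 genes tested, 0 of 77 members passed, and the background was the same, with 0% of all genes called. The smallest adjusted p of a member was 0.821. edgeR's quasi-likelihood test and DESeq2 also called 0 members. Over all genes edgeR called 0, and DESeq2 called 1 higher and 1 lower. At an unadjusted p under 0.05 limma gave 4 members, 2 higher and 2 lower in RSD, where 4% of all genes met that level (2.02% higher and 1.98% lower). edgeR gave 3 members, where 601 of 12496 genes met that level, and DESeq2 gave 3, where 577 did. In no member did the ranges of the groups fail to overlap (0 of 77, against 0.064% of all genes). A share near the background is no result about the members, and the values below describe them.

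The log2 differences ran from -0.58 to 0.34, with 31 members positive and 46 negative (59.7% negative, against 48.6% of all genes tested). Their median was -0.03 and that of all genes 0.01. The median size of a difference was 0.11 for the members and 0.11 for all genes, below the median standard error of 0.14 for the members. The 95% interval of the difference lay within 0.5 on the log2 scale on either side of 0 for 57 of 77 members, within 0.25 for 7 and within 1 for 76. In sorted but bulk samples like these, fewer cells of a type and less RNA per cell cannot be told apart.

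**Figure D3:**
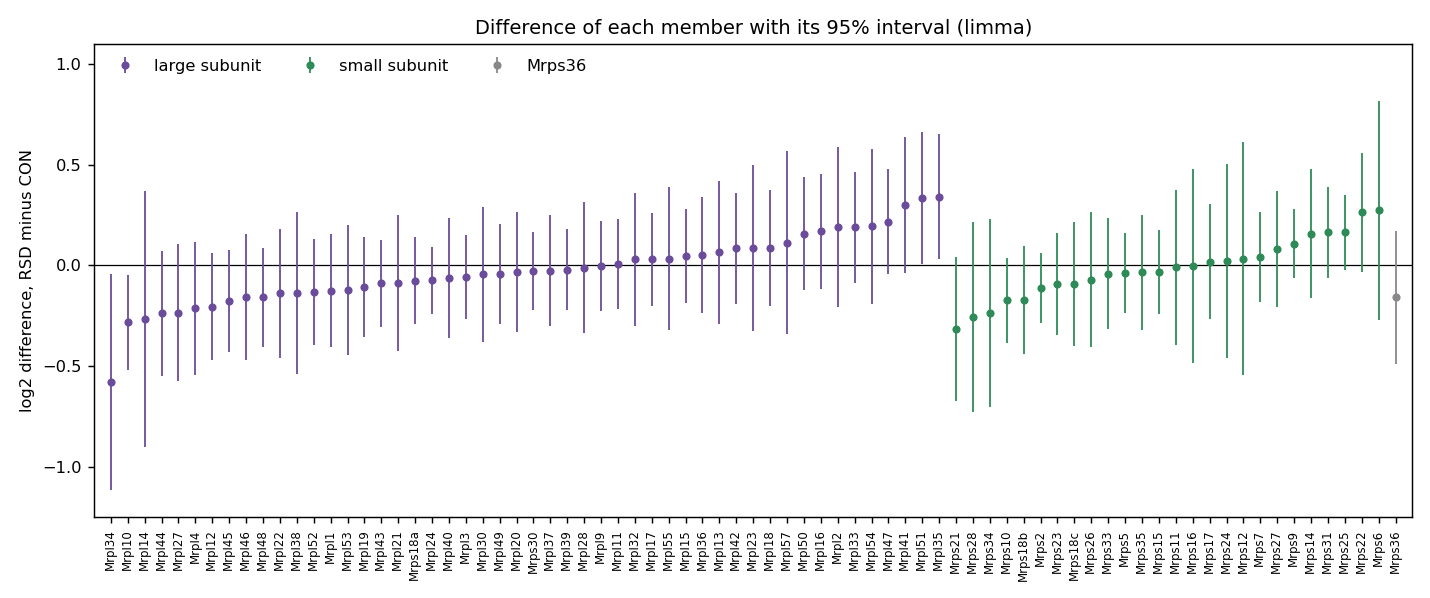
Log2 difference of each member between RSD and CON (RSD minus CON, on the log2(value + 1) scale), with points at the estimate and bars at the 95% interval from limma, ordered within the large subunit (purple), the small subunit (green) and Mrps36 (grey). Mrpl34 (-0.58) and Mrpl10 (-0.28) at the left and Mrpl51 (0.33) and Mrpl35 (0.34) at the right of the large subunit are the 4 members whose interval leaves out 0.

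The stalk proteins come first among the large subunit members. Mrpl10 and Mrpl12 form the flexible stalk that recruits translation factors, and Mrpl11 lies at its base. Mrpl10 (ENSMUSG00000001445.10; GRCm38 chromosome 11, 97041560 to 97049213, plus strand) had the smallest p of all members. It ran from 123 in RSD 8 to 201 normalized reads in RSD, with a median of 188, and from 186 in CON 18 to 223 in CON, with a median of 214. The 3 lowest libraries were RSD 8, RSD 12 and RSD 7, and the groups overlapped only through CON 18, since the other CON libraries stood at 208 or more. The log2 difference was -0.28 ± 0.11 (SE; 95% interval -0.52 to -0.05, limma adjusted p = 0.821). Without RSD 8 it was -0.20, without CON 18 it was -0.32, and after removal of each library's trend on GC content and length it was -0.26.

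Mrpl12, its partner in the stalk, averaged 92.7 ± 13.2 normalized reads in RSD (SD, n = 7) and 107 ± 13.9 in CON (SD, n = 6), a log2 difference of -0.21 ± 0.13. Mrpl11, at the stalk base, averaged 90.1 ± 8.61 in RSD, against 89.6 ± 6.10 in CON, a log2 difference of 0.01 ± 0.11. The 3 intervals overlapped, and the sign for Mrpl11 changed with the processing. Gm11574 shares 523 bases with Mrpl10 and Gm16755 shares 2244 with Mrpl12, both on the opposite strand. Whether counting used strand is not given in the sources used here, so reads of such partners cannot be told apart. Of all members, 41 overlap another annotated gene, 35 on the opposite strand and 13 on the same strand, with some on both. Mrpl24, Mrpl33, Mrpl47, Mrps18a, Mrps22 and Mrps25 are among them. The same limit holds for the levels of all such members, whether or not their partners are named.

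Of the other large subunit proteins with a bacterial counterpart, Mrpl34 (ENSMUSG00000034880.7; chromosome 8, 71464959 to 71465747, plus strand) had the largest difference of the family. It held 13.8 normalized reads in RSD 8 and up to 41.7 in RSD, with a median of 32.2, and 26.0 to 56.6 in CON, with a median of 48.0. RSD 8 was the lowest of all libraries and CON 4 was among the low ones, so the groups overlapped over most of the RSD range. The log2 difference was -0.58 ± 0.25 (95% interval -1.11 to -0.04, limma adjusted p = 0.821), and without RSD 8 it was -0.41. Mrpl34 is a short transcript of 607 bases with few reads, so counting alone gives 16.5% of variation.

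Mrpl35 (ENSMUSG00000052962.3; chromosome 6, 71812997 to 71826969, minus strand), a protein of the core of the large subunit, lay on the other side. It ran from 97.7 to 170 normalized reads in RSD, with a median of 120, and from 68.7 to 112 in CON, with a median of 105. RSD 8 and RSD 2 were the highest libraries and CON 18 the lowest, and the remaining values overlapped or lay close together. The log2 difference was 0.34 ± 0.15 (95% interval 0.03 to 0.65, limma adjusted p = 0.821). It was 0.24 without CON 18, 0.27 without RSD 8, 0.17 without both and 0.13 with limma-voom quality weights. In CON 18 the macrophage markers were high as well, and their part in this value was not tested.

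The remaining bacterial-type proteins of the large subunit overlapped between the groups. Mrpl47 averaged 73.7 ± 11.1 normalized reads in RSD, against 62.7 ± 2.65 in CON, with RSD 2 at 93.0 and RSD 8 at 81.9. Mrpl33 averaged 65.0 ± 3.13 in RSD and 57.5 ± 9.39 in CON, and Mrpl16 averaged 125 ± 21.1 in RSD and 111 ± 19.0 in CON. Mrpl27 averaged 55.8 ± 12.2 in RSD and 65.3 ± 9.87 in CON. Mrpl3, near the catalytic centre of the subunit, averaged 276 ± 39.4 in RSD and 285 ± 23.0 in CON, and its log2 difference of -0.06 was -0.11 without RSD 8. Mrpl24 averaged 328 ± 29.8 in RSD and 345 ± 14.8 in CON. Mrpl24 had a 95% interval of -0.24 to 0.09 on the log2 scale, one of the 7 that lay within 0.25 of 0.

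Among large subunit proteins without a bacterial counterpart, Mrpl51 (ENSMUSG00000030335.6; chromosome 6, 125191801 to 125196269, plus strand) had the smallest p. It ran from 48.8 to 71.3 normalized reads in RSD, with a median of 65.6, and from 37.5 to 63.1 in CON, with a median of 48.6. Of the RSD libraries 5 lay above the highest CON library and RSD 10 and RSD 8 lay within the CON range. The log2 difference was 0.33 ± 0.15 (95% interval 0.01 to 0.66, limma adjusted p = 0.821). Unlike Mrpl35, its value was much the same without CON 18 (0.35) and without RSD 8 (0.36). Mrpl51 overlaps the microRNA gene Mir3098 on the same strand.

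Mrpl41, another addition to the large subunit, ran from 68.6 to 141 normalized reads in RSD and from 70.4 to 98.1 in CON, a log2 difference of 0.30 ± 0.16, with RSD 2 the lowest of all 13 libraries and RSD 13 the highest. Mrpl44, which carries a domain related to RNase III, averaged 63.6 ± 7.06 in RSD and 76.2 ± 15.8 in CON. Mrpl45, which ties the ribosome to the inner membrane, averaged 117 ± 14.2 in RSD and 132 ± 18.5 in CON. Mrpl48 averaged 110 ± 12.0 in RSD and 124 ± 18.7 in CON. Mrpl52, high per length, averaged 100.1 ± 13.0 in RSD and 110 ± 16 in CON, and Mrpl42 averaged 163 ± 30.3 in RSD and 153 ± 20.6 in CON (log2 difference 0.08, and 0.01 without RSD 8). Mrpl57, of low level per length, averaged 58.7 ± 15.4 in RSD and 54.1 ± 13.9 in CON (log2 difference 0.11, with 0.04 without RSD 8 and -0.03 without CON 18). In all, 14 of the 20 large subunit members without a bacterial counterpart were negative, with a median of -0.05, and 16 of the 30 with one were negative, with a median of -0.01.

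No small subunit member had an unadjusted limma p under 0.05 (0 of 26, beside 4 of 50 for the large subunit, against 4% of all genes), and the difference between the subunits was not tested. Of the 26, 15 were negative, with a median log2 difference of -0.02. Mrps22 (ENSMUSG00000032459.9; chromosome 9, 98588730 to 98601660, minus strand), a mitochondrial addition to the small subunit that is altered in inherited mitochondrial disease in humans, had the smallest p. It ran from 105 to 202 normalized reads in RSD, with a median of 172, and from 119 to 144 in CON, with a median of 127. Of the RSD libraries 5 lay above every CON library, RSD 11 lay inside the CON range and RSD 12 below it. The log2 difference was 0.26 ± 0.14 (95% interval -0.03 to 0.56, limma adjusted p = 0.821). The SD over libraries was 34.4 in RSD and 9.13 in CON.

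**Figure D4:**
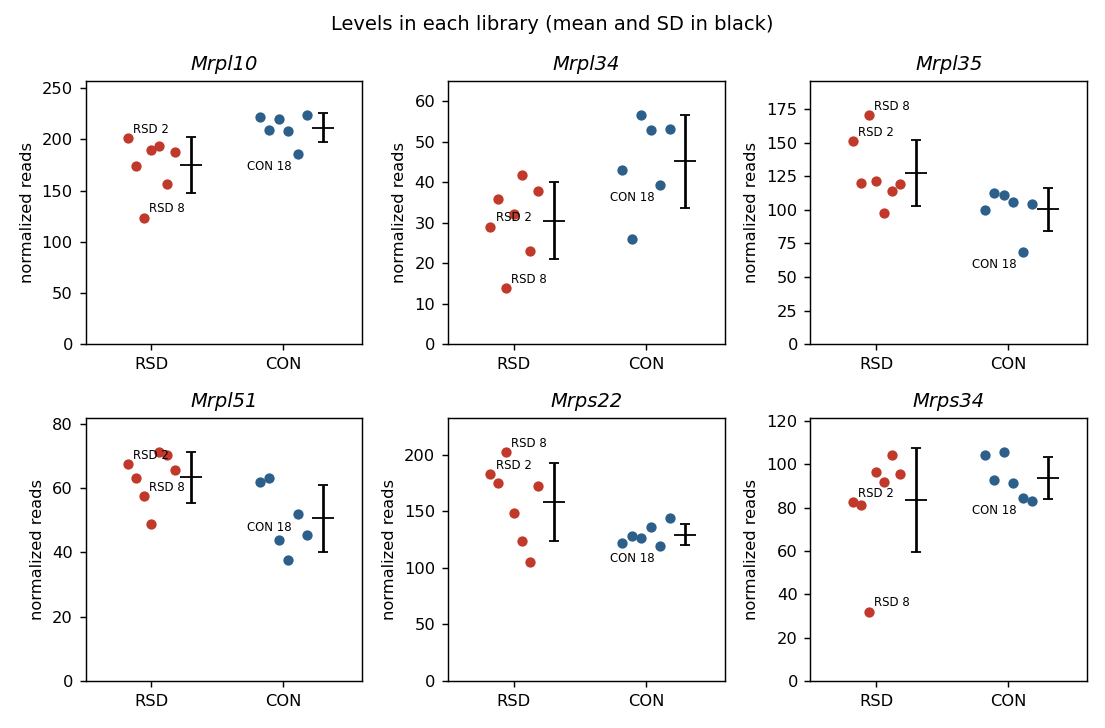
Normalized reads (vertical axes, from 0) of 6 members in each RSD library (red, left) and CON library (blue, right), with mean and SD in black beside the points and RSD 2, RSD 8 and CON 18 named. RSD 8 is the lowest library for Mrpl10, Mrpl34 and Mrps34 and the highest for Mrpl35 and Mrps22, and the groups overlap in all 6.

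Other mitochondrial additions to the small subunit overlapped too. Mrps25 averaged 279 ± 25 normalized reads in RSD, against 249 ± 23.2 in CON, and Mrps31 averaged 160 ± 19.0 in RSD and 142 ± 15.1 in CON. Mrps34, needed for a stable small subunit, ran from 31.9 to 105 in RSD, with a median of 91.6, and from 83.1 to 106 in CON, with a median of 92.0. The value of 31.9 was RSD 8 alone, at 34.6% of the median of the other libraries, and the next lowest RSD library held 81.2. The log2 difference was -0.24 ± 0.22 with RSD 8 and -0.02 without it. Mrps34 shares 2387 bases with Mapk8ip3 on the opposite strand and 1003 with Nme3 on its own strand, so its reads are uncertain.

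The bacterial-type proteins of the small subunit gave differences of both signs. Mrps21 averaged 60.4 ± 11.7 normalized reads in RSD, against 76.2 ± 18.2 in CON (log2 -0.32 ± 0.17). It is among the 8 members whose transcript has a near-identical match in another annotated gene. Such matches are not analysed here and could share its reads. The others are Mrpl22, Mrpl23, Mrpl27, Mrpl42, Mrpl53, Mrps10 and Mrps18c, and the same limit holds for their levels. For Mrpl53 the match is Gm42688, which shares 900 bases with it on the same strand, so it is an overlapping annotation and not a separate copy. Mrps10 averaged 152 ± 19.2 in RSD and 171 ± 12.7 in CON, and Mrps2 averaged 218 ± 18.7 in RSD and 235 ± 11.8 in CON. Mrps9 averaged 258 ± 23.4 in RSD and 239 ± 11.4 in CON. Mrps5 (162 ± 11.4 in RSD and 167 ± 19.2 in CON) and Mrps12 of the decoding centre (22.2 ± 6.71 in RSD and 21.9 ± 7.31 in CON) had log2 differences of -0.04 ± 0.09 and 0.03 ± 0.27, which were 0.02 without CON 18 for Mrps5 and 0.17 without RSD 8 for Mrps12. The member of highest level per length, Mrps15, averaged 274 ± 32.9 in RSD and 280 ± 29.0 in CON, and the one of lowest level, Mrps16, averaged 29.3 ± 5.23 in RSD and 30.6 ± 11.2 in CON, with a log2 difference of 0.15 without CON 18.

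The 3 relatives of bacterial protein S18 take different places in the mitochondrial ribosome. Only Mrps18c was classed with a bacterial counterpart, and Mrps18a and Mrps18b were counted as members without one. Mrps18c takes the bacterial place in the small subunit and averaged 87.8 ± 14.2 normalized reads in RSD, against 94.1 ± 18.6 in CON. Mrps18b, elsewhere in the small subunit, averaged 122 ± 17.7 in RSD and 137 ± 19.7 in CON. Mrps18a, in the large subunit, averaged 126 ± 13.0 in RSD and 132 ± 11.4 in CON. Their log2 differences were -0.09 ± 0.14 for Mrps18c, -0.17 ± 0.13 for Mrps18b and -0.08 ± 0.10 for Mrps18a, each with an interval that holds 0. Without RSD 8, where Mrps18b stood at 86.2, the difference was -0.09 for Mrps18b and -0.03 for Mrps18a. The sign changed among libraries numbered 10 to 19 for Mrps18b (0.056) and Mrps18a (0.00697), and among those numbered 1 to 8 for Mrps18c (0.18). For Mrps18a it also changed after removal of the GC and length trend (0.024). Mrps30, also of the large subunit, averaged 190 ± 15 in RSD and 194 ± 20.4 in CON. Mrps36, of neither subunit, averaged 35.9 ± 2.06 in RSD and 40.8 ± 9.12 in CON, and without CON 18 its log2 difference was -0.05 in place of -0.16.

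Pairs of members had correlations of either sign. Over the 2926 pairs of members, the Pearson correlation of their log2 values around the group means over the 13 libraries had a median of 0.01, and 50.5% of pairs were positive. Among the 41 members with a mean of at least 100 normalized reads, where counting error is smaller, the median was -0.01 over 820 pairs. All pairs share the same 13 libraries, the same median over all genes was not computed, and members of like GC content deviated together in some of these libraries, as described next.

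In a pair of RSD libraries the members deviated in step with the GC content of their transcripts. In RSD 8, 24 of the 77 members were at their lowest of all 13 libraries and 18 at their highest, while the other RSD libraries held 1 to 8 lowest members each and the CON libraries 2 to 10. Across members, the Spearman correlation between transcript GC content and deviation from the mean of the 13 libraries was -0.597 in RSD 8 and -0.379 in RSD 2 (n = 77 genes, which are not independent replicates). It was -0.03 to 0.28 in the other 11 libraries. Over 12365 tested genes with an annotated transcript it was -0.731 in RSD 8 and -0.519 in RSD 2, so the trend was not particular to the members. In the other 11 libraries it ran over all genes from -0.033 (CON 18) to 0.486 (CON 4). Upward trends were thus present too, among them 0.463 in RSD 11, 0.342 in CON 5 and 0.289 in CON 1.

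**Figure D5:**
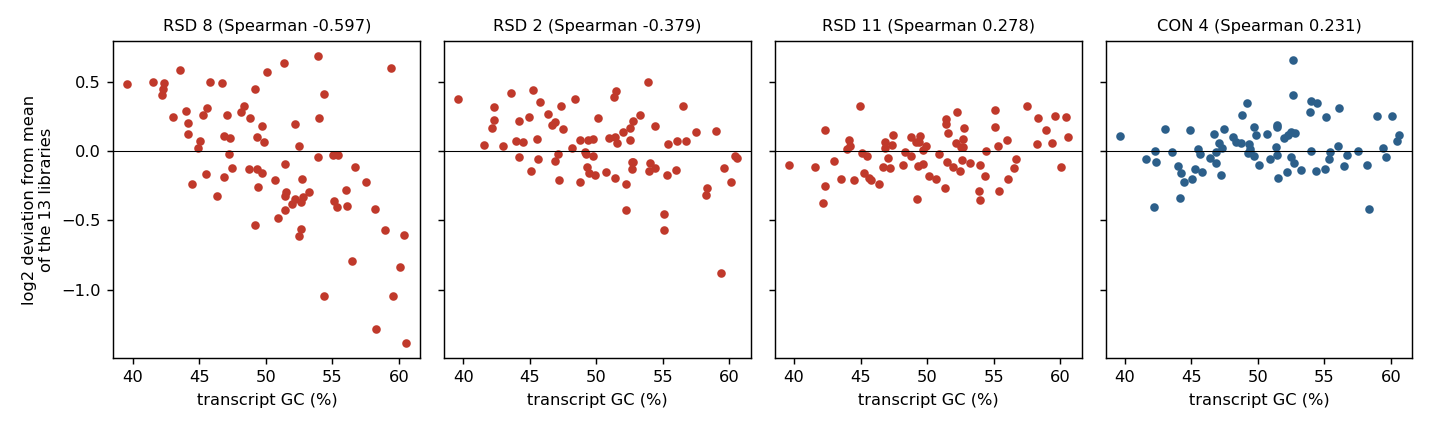
Log2 deviation of each of the 77 members from its mean over the 13 libraries (vertical axis) against the GC content of its transcript in percent (horizontal axis), in RSD 8, RSD 2, RSD 11 and CON 4, with the Spearman correlation above each panel. Points slope downward in RSD 8 (-0.597) and RSD 2 (-0.379) and slightly upward in RSD 11 (0.278) and CON 4 (0.231).

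The size of this trend can be read from 3 GC classes of the family. In RSD 8 the 25 members of lowest GC content (39.6% to 47.5%) stood at a median of 118.7% of their median in the other libraries, the 26 in the middle at 89.8%, and the 26 of highest GC content (52.7% to 60.6%) at 76.6%. In RSD 2 the same 3 classes stood at 112.8%, 103.4% and 92.3%. In CON 5 they stood at 99.4%, 96.6% and 107.1%, and in CON 18 at 102.2%, 99.1% and 87.8%. Of the 25 members of lowest GC content 11 were highest in RSD 8, and of the 26 of highest GC content 12 were lowest in it. Mrpl38, an extra protein of the large subunit named here after its values were seen, has a transcript GC content of 59.6%. It held 60.7 normalized reads in RSD 8, against 114 to 158 in the other RSD libraries and 110 to 165 in CON. Mrps14, a bacterial-type protein of the small subunit chosen in the same way, has 39.6% GC. It held 187 in RSD 8, against 102 to 173 in the other RSD libraries (173 in RSD 2) and 94.7 to 152 in CON.

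The differences between RSD and CON also varied with transcript GC content. Across the 77 members the Spearman correlation of the log2 difference with transcript GC content was -0.347, and over all 12365 genes it was -0.436. The classes of low, middle and high GC content had median log2 differences of 0.03, -0.04 and -0.07, with 10 of 25, 18 of 26 and 18 of 26 members negative. Among the members with an unadjusted p under 0.05, Mrpl35 (43.6% GC) and Mrpl51 (44.9%) were positive, and Mrpl10 (52.5%) and Mrpl34 (58.3%) were negative. With each library's trend on GC content and length removed, 0 members were called. An unadjusted limma p under 0.05 was then met by 3 members, where 533 of 12365 genes met it. Of the 4 members above, Mrpl10 was among these 3, at a log2 difference of -0.26, and Mrpl35 (0.27), Mrpl51 (0.28) and Mrpl34 (-0.44) were not. The other members under that level were Mrpl54 (0.35, against 0.19 before the removal) and Mrpl1 (-0.22, against -0.13), named after their values were seen. Without RSD 8, and with the trend left in, the difference was 0.31 for Mrpl54 and -0.22 for Mrpl1.

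The libraries carry numbers, and both groups have some from 1 to 8 and some from 10 to 19. The labels do not say what the numbers stand for. Within numbers 10 to 19 (RSD 10, 11, 12 and 13, and CON 17, 18 and 19), 6 members had an unadjusted limma p under 0.05, where 5.41% of all genes did. Within numbers 1 to 8 (RSD 2, 7 and 8, and CON 1, 4 and 5) 8 members did, where 22.2% of all genes did, so the members' share was below the background. The 2 ranges had 0 of these members in common, and 39 of the 77 members had opposite signs in them. The same counts over all genes were not computed, so neither is a result about the members. Across members, the Spearman correlation of the log2 difference with GC content was 0.07 in the range from 10 to 19. It was -0.63 in the range from 1 to 8, which holds RSD 8 and RSD 2. That range also holds CON 1, CON 4 and CON 5, where deviations over all genes correlated with GC content at 0.289, 0.486 and 0.342.

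The difference between the ranges was tested as an interaction, chosen after seeing the data. It gave 0 members past an adjusted limma p of 0.05 (smallest 0.151) and 10 with an unadjusted p under 0.05, where 21.7% of all genes met that level. Mrpl54, a mitochondrial addition to the large subunit, had the smallest p of these, with a log2 difference of 0.64 in the range from 10 to 19, against -0.34 in the range from 1 to 8. Mrps22 stood at 0.03 and 0.57 in the same order, and Mrps34 at 0.17 and -0.74. For the 4 members of smallest p over all 13 libraries, whose choice favours like values in both ranges, the values in this order were -0.18 and -0.41 for Mrpl10, -0.53 and -0.69 for Mrpl34, 0.30 and 0.44 for Mrpl35, and 0.50 and 0.17 for Mrpl51.

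Genes that act with the mitochondrial ribosome likewise had no member past an adjusted limma p of 0.05. Of the 6 measured ribosomal proteins that carry other names, 1 was higher and 1 lower at an unadjusted p under 0.05, where 2.02% of all genes were higher and 1.98% lower. These are small lists, and no test of a list was made. Values without RSD 8 or CON 18 are not given for the genes of these lists. The median deviation of the translation factors was highest in RSD 8 (0.15), and the part of RSD 8 or CON 18 in the means below was not tested. Ptcd3, a small subunit protein that binds RNA, averaged 728 ± 101.0 normalized reads in RSD, against 622 ± 89.6 in CON, and Aurkaip1, a small subunit protein, averaged 106 ± 9.27 in RSD and 135 ± 23.5 in CON. Ict1, the peptidyl-tRNA hydrolase now called Mrpl58, averaged 60.0 ± 12.1 in RSD and 66.5 ± 9.18 in CON. Of 14 translation factors 2 were higher and 0 lower at that level (2.02% and 1.98% of all genes), with a median log2 difference of 0.04. These were Pdf, which removes the formyl group from new proteins (306 ± 40.7 in RSD and 258 ± 18.4 in CON), and the initiation factor Mtif2 (592 ± 95.5 in RSD and 503 ± 33.8 in CON), while the elongation factor Tsfm averaged 46.4 ± 9.22 in RSD and 39.5 ± 11.6 in CON.

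Of 21 genes of ribosome assembly and ribosomal RNA modification, 0 met an unadjusted limma p of 0.05 (4% of all genes did), and 14 were negative, with a median of -0.04. Rbfa, which acts in maturation of the small subunit, averaged 215 ± 35.8 normalized reads in RSD, against 244 ± 32.4 in CON. Eral1, a GTPase that binds the small ribosomal RNA, averaged 189 ± 24.0 in RSD and 207 ± 15 in CON. The RNA methyltransferase Mrm1 averaged 81.2 ± 9.24 in RSD and 92.5 ± 16.7 in CON. Of 20 genes of mitochondrial transcription and RNA stability 2 were higher and 0 lower at that level (2.02% and 1.98% of all genes). Tfam, which packages and transcribes mitochondrial DNA, averaged 298 ± 41.3 in RSD and 243 ± 37.4 in CON, and Fastkd1 averaged 241 ± 26.5 in RSD and 206 ± 29.9 in CON. Lrpprc, which stabilizes mitochondrial messenger RNAs, averaged 1351 ± 183 in RSD and 1188 ± 75.7 in CON.

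Of 20 mitochondrial aminoacyl-tRNA synthetases, which load transfer RNAs, 1 was lower and 0 higher at that level (1.98% and 2.02% of all genes), with a median of -0.06. This was Ears2, for glutamate, at 64.0 ± 18.7 normalized reads in RSD, against 86.2 ± 9.03 in CON (log2 -0.47 ± 0.18). Mars2, for methionine, averaged 75.9 ± 6.73 in RSD and 93.7 ± 18.6 in CON, and Gars, for glycine in both compartments, averaged 595 ± 31.4 in RSD and 541 ± 43.1 in CON.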

How the data were processed

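RNA sequencing libraries (NuGEN Ovation SoLo with depletion of ribosomal RNA, per the labels' protocols) had their reads mapped to mm10 by STAR and scaled by DESeq2, per the submitters' processing notes. Tool versions and the way reads were counted (tool, annotation, strand) are not stated there or in the labels. The deposited table holds a signal per gene and library, a read count divided by a size factor. All values were whole multiples of 1 step per library within 0.01 reads, so the reads were recovered, and column totals of these reads gave the depth.

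Differences (RSD minus CON) were tested across all genes with limma 3.58.1 (R 4.3.3) on log2(value + 1), with a variance trend and robust estimation, two-sided, adjusted by Benjamini-Hochberg at 0.05. This scale understates changes of low genes. edgeR's filterByExpr (minimum count 10, minimum total 15) kept 12496 genes. edgeR 4.0.16 and DESeq2 1.42.0 on recovered reads were alternatives, with other scalings, pseudocounts, filters, weights, sample sets, and smooth trends on GC content and length (mgcv 1.9.3). Of 14518 symbols, 13790 were found in GENCODE M21, 559 by a RefSeq synonym and 169 were unmatched. The limma step was tested on simulated data. All pairs of libraries differed by more than counting noise (lowest chi-square per degree of freedom 4.35).

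Members and gene lists were chosen with earlier results of these data known. Named were all members past the threshold, the 10 of smallest p in each direction, members without overlap, the 5 of highest and 3 of lowest level per kilobase, others chosen by role (among them Mrpl58, listed as Ict1), and up to 3 genes of smallest p per pathway list. Promoter sequences are RefSeq's (GRCm38.p6).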

Additional observations from a re-analysis of the deposited data

Results flagged for a closer look

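In each group the highest and lowest library of each member was compared with the rest by Dixon's criterion. Of 154 groups of values tested over the 77 members, 10 held such a library, where chance gives about 5% of groups. Among the members named above, Mrps34 had 31.9 normalized reads in RSD 8, where the other RSD libraries held 81.2 to 105, and Mrps18b had 86.2 in RSD 8, where the others held 121 to 140. Mrpl27 had 80.2 in RSD 2, above the other RSD libraries (40.7 to 56.98). Mrpl35 had 68.7 in CON 18, below the other CON libraries (99.8 to 112), and Mrps36 had 58.6 in CON 18, above them (33.4 to 41.3). The ratio of summed large to small subunit transcripts was 1.83 in RSD 12, below the other RSD libraries (1.91 to 1.97). RSD 8 and CON 18 also stood apart over all genes, and the part of this in the values above was not tested.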

How the results depend on the processing

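No member passed an adjusted p of 0.05 under any of the 25 alternatives run with limma, edgeR or DESeq2, and 2 to 8 members had an unadjusted p under 0.05. There were 2 without CON 5, 2 without RSD 8 and 2 with a mean of at least 100 normalized reads. Over all genes 380 of 12588, 385 of 12445 and 361 of 8862 met that level in these settings. There were 6 with limma-voom quality weights (1127 of 12496 genes) and 6 without CON 18 and RSD 8 (612 of 12535 genes). Within numbers 10 to 19 and 1 to 8 there were 6 and 8 (680 of 12577 and 2776 of 12492 genes). The background differed between settings, so the counts of members alone are no result about them. The median log2 difference of the members stayed between -0.04 and 0.01, and that of all genes between -0.01 and 0.01. With the filter at 100 normalized reads, 25 of 41 members were negative. No paired analysis was possible because the groups share no replicate numbers.

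Of 36 named members, 21 kept their sign in every alternative, and 46 of 884 single values changed sign, for which the cause was not tested. Within numbers 10 to 19 the reversed log2 differences were -0.14 for Mrpl42, 0.016 for Mrpl48, 0.12 for Mrps16, 0.00697 for Mrps18a, 0.056 for Mrps18b, 0.038 for Mrps21 and 0.17 for Mrps34. Within numbers 1 to 8 they were -0.079 for Mrpl11, 0.064 for Mrpl45, -0.032 for Mrps12, 0.075 for Mrps15, 0.18 for Mrps18c and 0.16 for Mrps30. Without the GC and length trend they were -0.017 for Mrpl11, 0.033 for Mrps15 and 0.024 for Mrps18a, and with TMM scaling -0.00125 for Mrpl11. With voom quality weights they were -0.15 for Mrpl57, 0.089 for Mrps16 and 0.043 for Mrps5, and without CON 18 and RSD 8 -0.10, 0.17 and 0.045 for the same members. Leaving out 1 library at a time gave log2 differences that crossed 0 for 7 members: -0.022 to 0.043 for Mrpl11, -0.030 to 0.23 for Mrpl57, -0.15 to 0.17 for Mrps12, -0.089 to 0.013 for Mrps15, -0.16 to 0.15 for Mrps16, -0.062 to 0.022 for Mrps30 and -0.078 to 0.017 for Mrps5. Counting error alone limits members of few reads: Mrpl14 (26.5%), Mrps12 (21.5%) and Mrps16 (18.5%).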
